A study of Homo sapiens with 16 samples.

Results

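Jurkat cells that carried a short hairpin RNA (shRNA) against USP7 were compared with all Jurkat controls, gene by gene and by gene group. The comparison used 8 of the 16 RNA-seq libraries of the series, chosen by the line and construct in their labels: 4 libraries with a USP7 hairpin and 4 control libraries. Jurkat is an established line of T-cell acute lymphoblastic leukemia (T-ALL), labelled TAL1+ for its aberrant TAL1 expression, and all 8 libraries came from it. The hairpin arm held 2 libraries of USP7shRNA4057 and 2 of USP7shRNA4058, hairpins against different exons of USP7 that were delivered by lentivirus. The control arm held 2 libraries of scrambled cells, transduced with a hairpin of shuffled sequence, and 2 of wild-type cells, which carried no hairpin. The other 8 libraries had the same layout in HSB-2, another TAL1+ T-ALL line, and enter below only where the effect in Jurkat was tested against that in HSB-2. Transduced T-ALL cells were obtained either by sorting for green fluorescence some days after transduction or with puromycin. Which of these was used for the sequenced cells is not given in the sources used here, and wild-type cells would have passed through neither. The labels do not say that the 2 libraries of a group came from separate cultures, so the spread within a group may be technical. The main test below compares 2 arms and adds to this spread the differences between the hairpins and between the controls. Its p-values measure that combined spread between these libraries.

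USP7 is a deubiquitylating enzyme that removes ubiquitin from many nuclear proteins, among them MDM2, p53 and polycomb subunits, and so affects how long these proteins last. In TAL1+ T-ALL the transcription factor TAL1 pairs with the E proteins TCF3 (E2A) and TCF12 (HEB), which in thymocytes drive genes of receptor rearrangement such as RAG1 and PTCRA. The study asked whether partial loss of USP7 lowers expression of E-protein targets in such cells, and the question followed here is which gene groups lay away from both controls.

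The 8 libraries held 86.9 to 110.3 M counted reads each, in raw counts per gene. Levels are given as CPM (reads of a gene per M reads of the library) after TMM scaling, a correction of library size for differences in RNA composition. A level of 3 counts corresponds to 0.0272 to 0.0345 CPM, so differences among genes near this level were not detectable at this depth. The 10 most abundant genes took 14.9% and 17.04% of the counts in the scrambled libraries, 10.9% and 12.1% in the wild-type and 8.16% to 9.43% in the hairpin libraries, and the TMM factors ran from 0.879 to 1.07. Libraries of a group correlated at r = 0.999 across genes and still differed by more than counting noise (chi-square per degree of freedom 7.38 to 18.4), so none was counted as a copy of another. T-cell identity genes were plainly present, with CD3D at 261 to 441 CPM. The B-cell gene PAX5 did not exceed 8 counts, the myeloid gene MPO 3 counts, and the red-cell gene HBB was at 0 in all 8 libraries. Other markers of these lineages were expressed, among them CD79A (2218 to 6075 counts), IGLL1 (731 to 13318), CEBPE (527 to 10081) and EPOR (878 to 1201). Enough counts for a test were found in 6 of 12 B-cell, 7 of 15 myeloid and 5 of 16 erythroid markers.

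USP7 itself (ENSG00000187555, chr16:8985954-9069185 on the minus strand of GRCh37) was at 415 and 406 CPM in wild-type, 402 and 407 CPM in scrambled, 149.9 and 156 CPM in shRNA4057 and 264 and 260.5 CPM in shRNA4058 libraries. All 4 hairpin libraries lay below all 4 controls, and the groups did not overlap. The main test, edgeR's quasi-likelihood test of the 4 hairpin against the 4 control libraries with Benjamini-Hochberg adjustment over all genes, put the log2 fold change at -0.97 (SE 0.18, adjusted p 0.0042). Residual USP7 was lower with shRNA4057, by a log2 difference of -0.78 from shRNA4058. An antisense gene, USP7-AS1, overlaps the locus, and the strand setting of the counting is not given in the sources used here.

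Of 20215 genes tested, 5390 were called at an adjusted p under 0.05, 2530 higher (12.5%) and 2860 lower (14.1%). With all 4 hairpin libraries outside the range of all 4 controls there were 4946, of which 2281 were higher (11.3%) and 2665 lower (13.2%). A change of at least 2-fold was seen in 724 of the genes called higher and 452 of those called lower, and the median log2 fold change of all genes tested was 0.01. The split depends on scaling: with library totals in place of TMM 6298 genes were called, 76.3% of them higher against 46.9% here, and the median of all genes moved to 0.17. In a fit of the 4 groups of 2, 53.4% of genes were called against scrambled and 37.7% against wild-type cells, and 26.1% between scrambled and wild-type cells. Both contrasts share the hairpin libraries. In all 6317 genes were called in the same direction against each control, and 4480 of the 4946 called and non-overlapping genes were among them.

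Gene groups were described with 40 lists, by how many tested members passed the main test in each direction and by the median of all tested members. Beside the 12.5% higher and 14.1% lower among all genes, the largest shares lower, in this order, were in the cytosolic ribosomal proteins, both lipid synthesis lists, the mitochondrial respiratory chain, the E-protein targets and the thymocyte genes, and the largest share higher was in ribosome biogenesis. The lists of markers of cell types, among which B-cell markers had 4 of 6 members lower, are left out of this order and given further on.

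**Figure D1:**
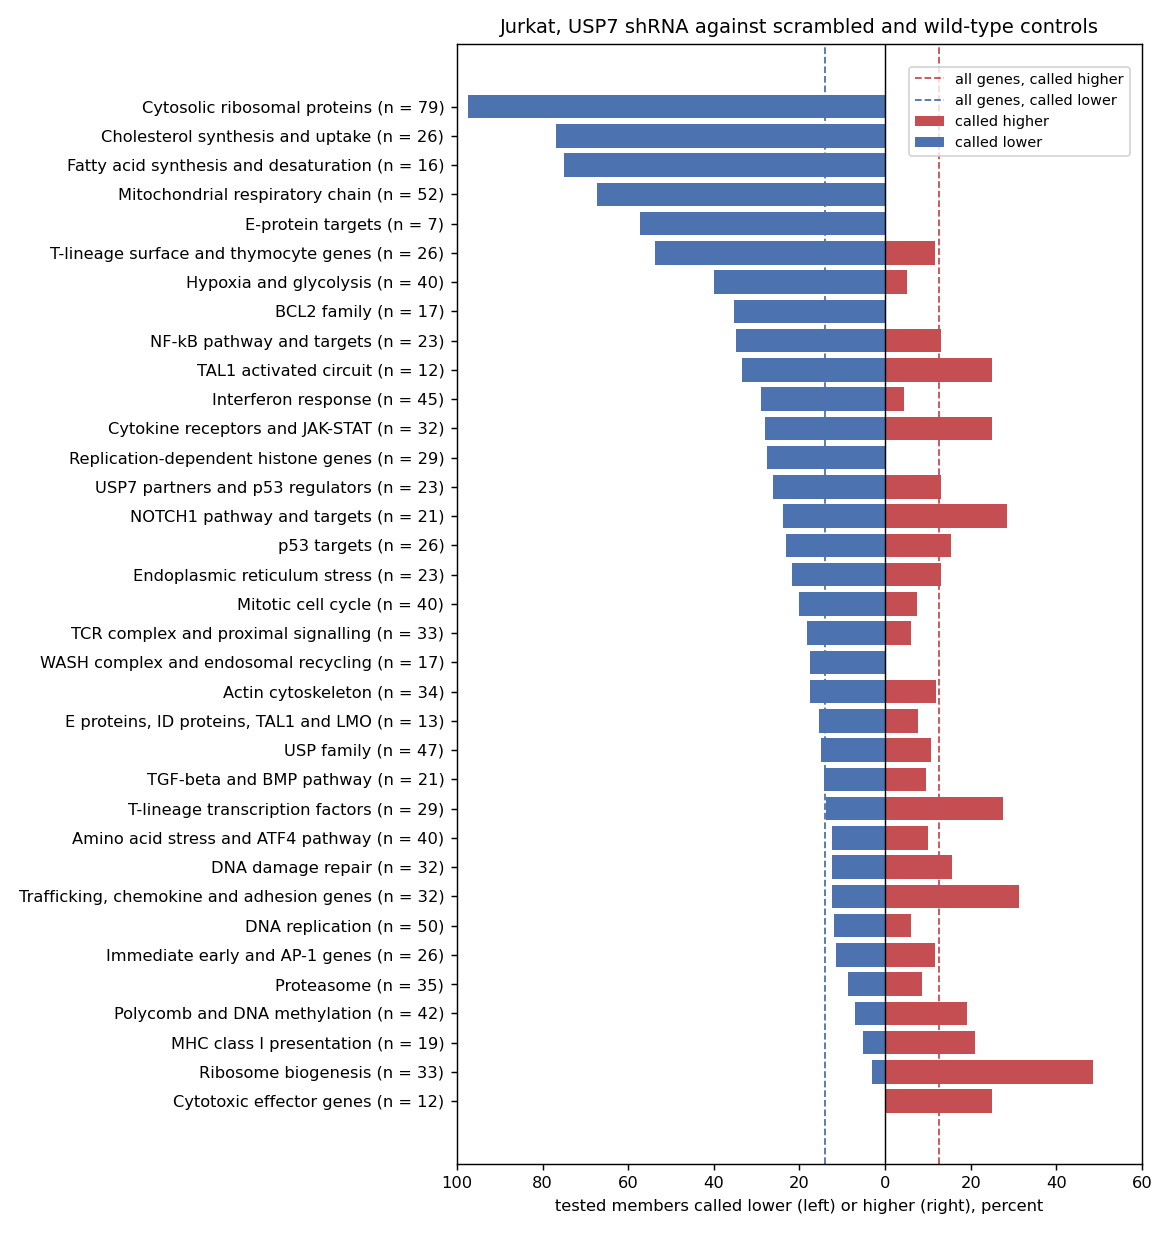
Share of the tested members of 35 gene lists called lower (blue, left) or higher (red, right) in the 4 hairpin against the 4 control libraries, in percent, with dashed lines at the shares of all genes (14.1% lower, 12.5% higher). The cytosolic ribosomal proteins (77 of 79) and both lipid lists (20 of 26 and 12 of 16) are lower with no member higher, and ribosome biogenesis (16 of 33) reaches furthest to the right.

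Cytosolic ribosomal protein genes, which encode the protein part of the ribosome, were lower with the hairpins almost without exception. Of 79 tested, 77 fell and 0 rose, and the list's median log2 fold change was -0.51 beside 0.01 for all genes. Against scrambled cells the median was -0.66 and against wild-type cells -0.34, so the controls themselves were apart by a median of 0.33 (scrambled minus wild-type). Summed over the list, the level was 43437 to 44644 CPM in the hairpin libraries and 54760 to 71247 CPM in the controls, with no overlap.

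RPS3A, a protein of the small subunit, was at 1076 and 1021 CPM in wild-type, 1746 and 1632 CPM in scrambled, 819.9 and 842 CPM in shRNA4057 and 822 and 799.6 CPM in shRNA4058 libraries. RPS6, the small-subunit protein phosphorylated by S6 kinases, was at 1577 and 1571 CPM in wild-type, 2276 and 2316 CPM in scrambled, 1204 and 1179.5 CPM in shRNA4057 and 1159.7 and 1211 CPM in shRNA4058 libraries. In both genes the hairpins gave nearly equal levels, wild-type cells stood in the middle and scrambled cells at the top (log2 fold change -0.74, SE 0.16, quasi-likelihood adjusted p 0.0089 for RPS3A, and log2 fold change -0.70, SE 0.13, quasi-likelihood adjusted p 0.0045 for RPS6). RPS21 (-0.73, SE 0.11) and RPL36 (-0.71, SE 0.13) completed the 4 lowest members. The members that did not pass were RPL17, at 7.66 and 6.33 CPM in wild-type, 7.05 and 6.97 CPM in scrambled, 6.83 and 6.98 CPM in shRNA4057 and 7.81 and 6.52 CPM in shRNA4058 libraries, and RPS10, at 8.72 to 12.8 CPM in controls (-0.29, SE 0.14). The median difference between the hairpins was -0.01 (shRNA4057 minus shRNA4058). With wild-type cells alone as control 67 members were called lower, with library totals 70, and when any library was left out 69 to 76. Ribosomal protein genes are short (median length 676 bases, all genes 1003) and have many near-identical processed pseudogenes that can share reads with them. With an offset for length and GC content 73 members were called lower, and the part of the pseudogenes was not tested.

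Ribosomal protein mRNAs are known for a run of pyrimidines that begins at the cap and places their translation under growth control. The RefSeq promoters (GRCh38.p14) of the 4 lowest members are printed from 15 bases before to 15 bases after the start, 5′ to 3′. The pyrimidine run at the start is in capitals, with any pyrimidines directly before the start included, as in RPS21, RPL36 and RPS6. They lie at chr4:151099613-151099642 on the plus strand (RPS3A), chr20:62387088-62387117 on the plus strand (RPS21), chr19:5690280-5690309 on the plus strand (RPL36) and chr9:19380222-19380251 on the minus strand (RPS6).
RPS3A: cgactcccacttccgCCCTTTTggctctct
RPS21: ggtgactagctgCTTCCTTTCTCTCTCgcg
RPL36: ccgcgcggcgccagCCCTTCCgccacggcc
RPS6: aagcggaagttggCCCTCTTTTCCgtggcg
Among 63 ribosomal protein genes with a RefSeq promoter, 46 (73.02%) held at least 5 consecutive C or T on the gene's own strand beginning at a listed start, compared with 6.497% of 27305 genes. RPS10, which did not pass the main test, was among the 46 with the motif. This motif and those below were chosen with the results known, and a match describes the sequence only.

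Subunits of the mitochondrial respiratory chain, which carry electrons to oxygen and make ATP, were also lower. Of 52 tested, 35 fell and 0 rose, with a median log2 fold change of -0.28. COX5B, a nuclear-encoded subunit of cytochrome c oxidase, was at 74.9 and 75.2 CPM in wild-type, 95.5 and 104 CPM in scrambled, 57.2 and 56.6 CPM in shRNA4057 and 54.2 and 57.2 CPM in shRNA4058 libraries. COX6A1, of the same complex, was at 60.7 and 61.9 CPM in wild-type, 75.1 and 77.2 CPM in scrambled, 39.5 and 40.5 CPM in shRNA4057 and 48.7 and 48.1 CPM in shRNA4058 libraries. The hairpin libraries lay below all controls in both genes, and scrambled cells were again highest (log2 fold change -0.63, SE 0.11, quasi-likelihood adjusted p 0.0028 for COX5B, and log2 fold change -0.64, SE 0.10, quasi-likelihood adjusted p 0.0027 for COX6A1). UQCRC2 of complex III (-0.52, SE 0.08) and ATP5PO of the ATP synthase (-0.51, SE 0.10) followed. The median was -0.40 against scrambled and -0.17 against wild-type cells. With wild-type cells alone as control 11 members passed, with library totals 13, and with a library left out 19 to 36, with 19 and 20 without scrambled replicate 1 and 2 and 22 without shRNA4057 replicate 2.

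Genes of cholesterol synthesis and uptake fell by similar amounts against either control. These enzymes build sterols from acetyl-CoA through mevalonate and squalene, and their transcription is driven by the factor SREBP-2, encoded by SREBF2, when sterols run low. Of 26 members tested, 20 fell and 0 rose, and the median log2 fold change was -0.55, with -0.63 against scrambled and -0.51 against wild-type cells.

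INSIG1, which holds SREBP in the endoplasmic reticulum and is itself an SREBP target, was at 585 and 578 CPM in wild-type, 709 and 697 CPM in scrambled, 220.2 and 220.4 CPM in shRNA4057 and 401 and 384 CPM in shRNA4058 libraries. FDFT1, the squalene synthase, was at 709 and 723 CPM in wild-type, 852 and 871 CPM in scrambled, 330.4 and 322 CPM in shRNA4057 and 462 and 471 CPM in shRNA4058 libraries. In both genes shRNA4057 gave the lowest levels, shRNA4058 intermediate ones, and no hairpin library reached a control (log2 fold change -1.07, SE 0.20, quasi-likelihood adjusted p 0.0045 for INSIG1, and log2 fold change -0.99, SE 0.14, quasi-likelihood adjusted p 0.0013 for FDFT1). DHCR7, the reductase of the last step to cholesterol, was at 158 and 168 CPM in wild-type, 179.7 and 188 CPM in scrambled, 73.8 and 71.1 CPM in shRNA4057 and 111 and 116 CPM in shRNA4058 libraries. FDPS, which makes farnesyl diphosphate, was at 365 and 369 CPM in wild-type, 412 and 435 CPM in scrambled, 177 and 174 CPM in shRNA4057 and 249 and 259.6 CPM in shRNA4058 libraries. Both fell, by -0.90 (SE 0.16) for DHCR7 and -0.88 (SE 0.14) for FDPS. SREBF2 was at 347 and 363 CPM in wild-type, 379 and 387 CPM in scrambled, 237 and 229.8 CPM in shRNA4057 and 299.6 and 308 CPM in shRNA4058 libraries and fell by a log2 fold change of -0.46 (SE 0.10). Among the 6 members that did not pass were HMGCS1 (-0.57, adjusted p 0.072 in the quasi-likelihood test, although its groups did not overlap), NSDHL, the lysosomal exporter NPC1, the SREBP escort SCAP (0.02) and PMVK (0.07).

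The list differed between hairpins, with a median of -0.52 for shRNA4057 minus shRNA4058, beside 34.8% of all genes called in that contrast. With wild-type cells alone as control only 6 members passed, with scrambled cells alone 19, with library totals 13 lower and 1 higher, and with a library left out 16 to 22. FDFT1 overlaps an antisense RNA, so its reads may be shared.

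SREBF2 was the member whose RefSeq promoter held a sterol regulatory element of the form TCACNCCAC, and the 200 bases before its start (GRCh38.p14, chr22:41832905-41833104 on the plus strand) are printed 5′ to 3′ with that element in capitals.
SREBF2: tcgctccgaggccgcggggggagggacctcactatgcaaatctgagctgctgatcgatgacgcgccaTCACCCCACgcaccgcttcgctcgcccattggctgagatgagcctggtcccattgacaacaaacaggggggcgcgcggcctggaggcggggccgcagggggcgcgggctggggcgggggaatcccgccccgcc
The element, searched on both strands of the 300 bases around each start (250 before and 50 after), was in 1 of 20 cholesterol genes, 2 of 16 fatty acid genes (ACSL1 and MID1IP1) and 1.388% of all promoters.

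Fatty acid synthesis and desaturation genes moved with them: of 16 tested, 12 fell and 0 rose, with a median of -0.53. SCD, the desaturase that makes oleate, was at 961 and 969 CPM in wild-type, 915 and 905 CPM in scrambled, 397 and 397 CPM in shRNA4057 and 526 and 527 CPM in shRNA4058 libraries. ACSS2, which makes acetyl-CoA from acetate, was at 16.2 and 15.6 CPM in wild-type, 18.4 and 17.6 CPM in scrambled, 7.14 and 7.202 CPM in shRNA4057 and 9.02 and 9.28 CPM in shRNA4058 libraries. In both, every hairpin library lay below every control, and the levels with shRNA4057 were the lowest (log2 fold change -1.02, SE 0.10, quasi-likelihood adjusted p 4.1e-04 for SCD, and log2 fold change -1.05, SE 0.11, quasi-likelihood adjusted p 4.2e-04 for ACSS2). FADS2, a desaturase of polyunsaturated fatty acids (-0.82, SE 0.11), MID1IP1, an activator of acetyl-CoA carboxylase (-0.89, SE 0.15), and SREBF1, which encodes SREBP-1 (-0.73, SE 0.07), fell as well. FASN, the fatty acid synthase, was at 388 and 415 CPM in wild-type, 429 and 434 CPM in scrambled, 252 and 242 CPM in shRNA4057 and 350.2 and 377 CPM in shRNA4058 libraries, and its fold change was smaller (log2 fold change -0.45, SE 0.14, quasi-likelihood adjusted p 0.034). The members that did not pass were ACSL3 (-0.48), the elongases ELOVL6 (-0.34) and ELOVL1 (-0.17), and LPIN1 of triglyceride synthesis (0.02). ABCA1, a sterol exporter controlled by LXR receptors and not by SREBP, was outside these lists and among the 15 genes that fell most, at 6.97 and 5.79 CPM in wild-type, 5.08 and 4.05 CPM in scrambled, 1.195 and 0.635 CPM in shRNA4057 and 1.297 and 1.22 CPM in shRNA4058 libraries (log2 fold change -2.33, SE 0.24, quasi-likelihood adjusted p 3.9e-04). SREBF1 overlaps RAI1 on the opposite strand. With wild-type cells alone as control 7 of the fatty acid genes passed, with library totals 8, and with a library left out 9 to 13.

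**Figure D2:**
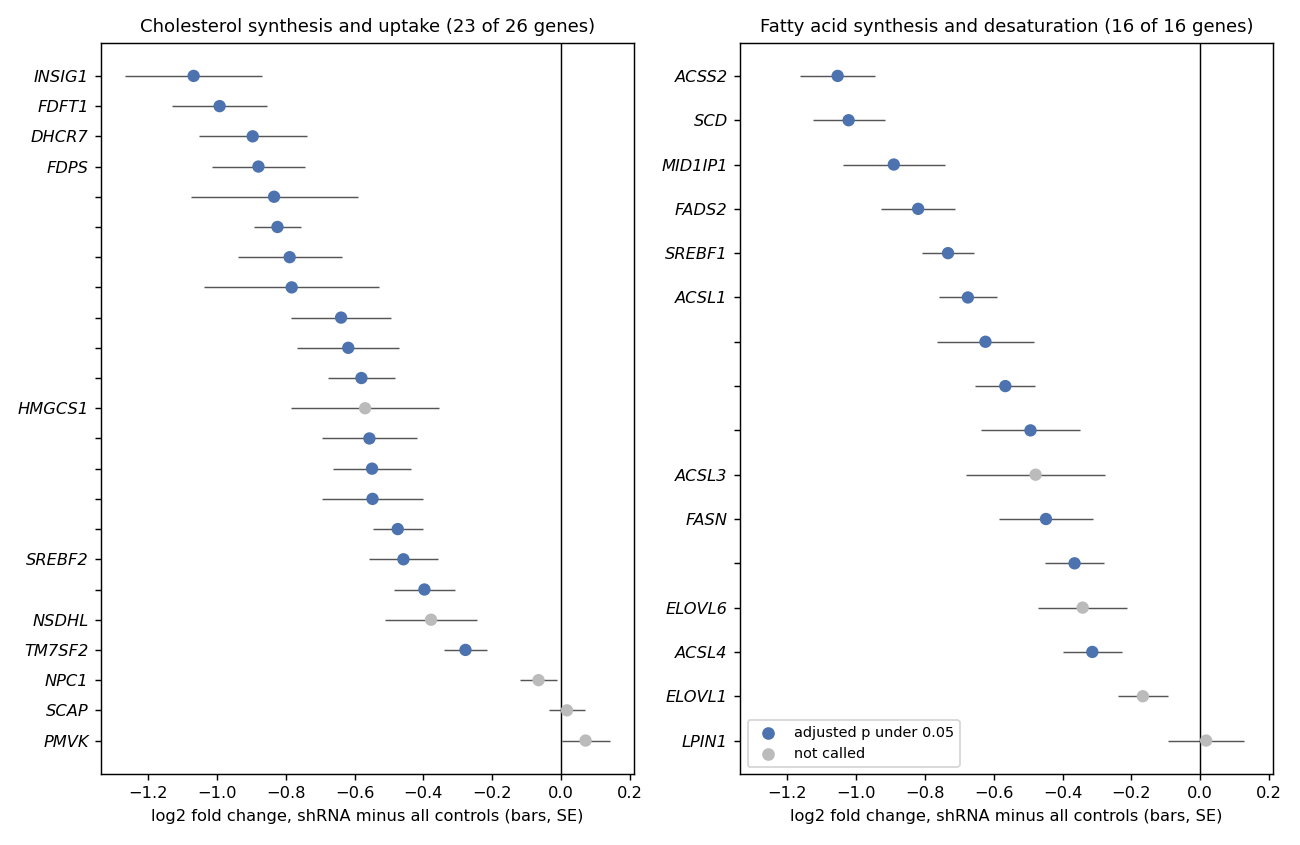
Log2 fold change (hairpin minus all controls, horizontal axis, bars are SE, 4 against 4 libraries) of 23 of the 26 tested genes of cholesterol synthesis and uptake (left) and all 16 of fatty acid synthesis and desaturation (right), labelled where the text names them, with blue points for an adjusted p under 0.05 and grey points for the rest. The called genes drawn are all below 0, from -1.07 for INSIG1 to -0.28 for TM7SF2 on the left and from -1.05 for ACSS2 to -0.31 for ACSL4 on the right.

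Ribosome biogenesis factors, which transcribe, process and assemble ribosomal RNA in the nucleolus, moved opposite to the ribosomal proteins by their median, and more so with shRNA4058. Of 33 tested, 16 rose and 1 fell (NOB1, -0.34, SE 0.08), and the median log2 fold change was 0.29, the same against scrambled as against wild-type cells (0.29 and 0.29). POLR1B, a core subunit of RNA polymerase I, was at 34.5 and 32.5 CPM in wild-type, 30.6 and 29.9 CPM in scrambled, 41.1 and 42.8 CPM in shRNA4057 and 59.8 and 58.8 CPM in shRNA4058 libraries. RRP12, of pre-ribosome export, was at 31.5 and 32.4 CPM in wild-type, 31.96 and 33.9 CPM in scrambled, 42.1 and 40.1 CPM in shRNA4057 and 62.8 and 67.98 CPM in shRNA4058 libraries. In both genes all hairpin libraries lay above the controls, and shRNA4058, the hairpin with more USP7 left, gave the higher levels (log2 fold change 0.67, SE 0.13, quasi-likelihood adjusted p 0.0048 for POLR1B, and log2 fold change 0.72, SE 0.16, quasi-likelihood adjusted p 0.0093 for RRP12). The helicase DDX21 (0.57, SE 0.16) and NOP16 (0.55, SE 0.10) rose too, whereas NPM1, the abundant nucleolar chaperone (-0.02), and the methyltransferase FBL (-0.14) did not pass. The difference between hairpins had a median of -0.39 (shRNA4057 minus shRNA4058). Summed over the list, the level was 3978 to 5275 CPM in the hairpin libraries and 3918 to 4037 CPM in the controls, so the ranges overlapped. Against wild-type cells alone 3 members were called higher, against scrambled cells alone 9, with library totals 26, and with a library left out 9 to 19, fewest without scrambled replicate 2.

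The E-box CACGTG, the site that MYC with MAX and other factors can bind, was in the RefSeq promoter of 13 of 27 biogenesis genes (48.15%) and of 8.775% of all genes, searched on both strands. UTP20, a processing factor of the small subunit that rose by 0.54 (SE 0.14), is shown by the 60 bases before its start (GRCh38.p14, chr12:101280045-101280104 on the plus strand), with the motif in capitals.
UTP20: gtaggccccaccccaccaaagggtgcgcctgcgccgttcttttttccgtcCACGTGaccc

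**Figure D3:**
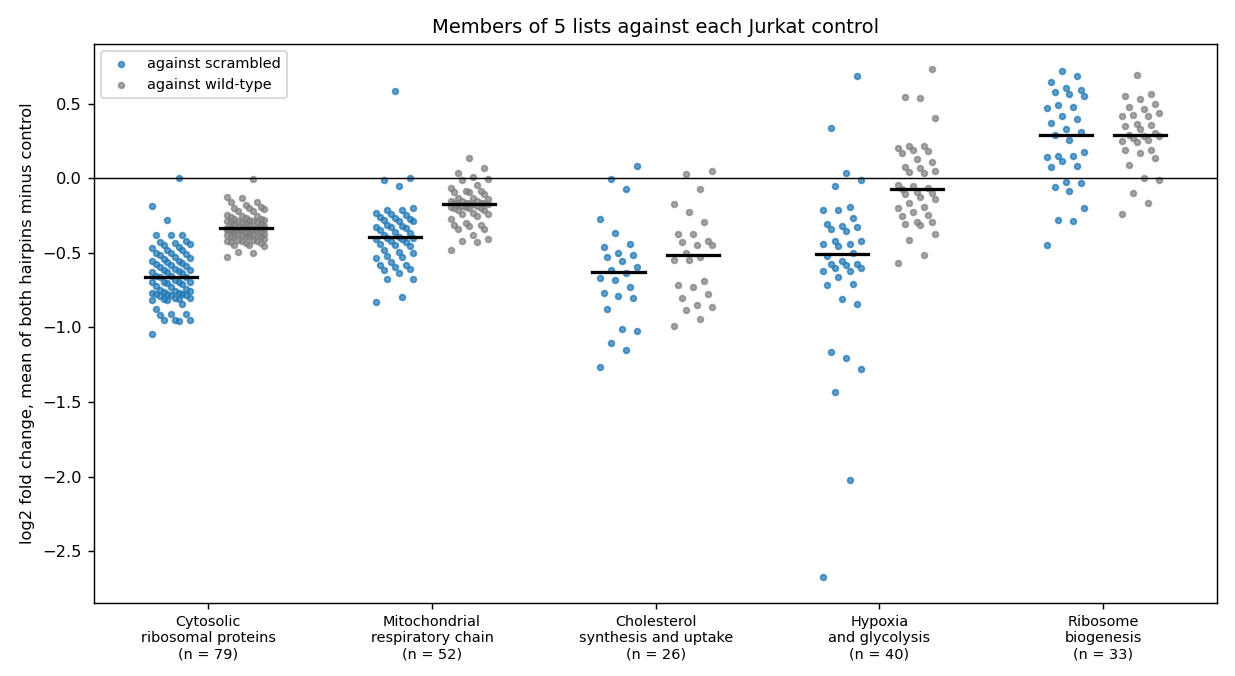
Log2 fold change of the mean of both hairpins against scrambled (blue) and against wild-type cells (grey) for each tested member of 5 lists, with black lines at the medians, from the fit of 4 groups of 2. The ribosomal protein medians are -0.66 and -0.34, the respiratory chain -0.40 and -0.17, cholesterol -0.63 and -0.51, hypoxia -0.51 and -0.07, and ribosome biogenesis 0.29 against either control.

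The list of E-protein targets holds 7 genes. The study's text names RAG1 and PTCRA as such targets, and RAG2 and CD69 for binding peaks nearby. The others are CD1A, CD1B and CD1E. The study's own target set is a different one, defined by knock-down of E2A, HEB and TAL1 and tested by gene set enrichment. The list used here was drawn up with results of these libraries known. The study picked out RAG1 and PTCRA partly on Jurkat hairpin cells, so their direction is not independent evidence. Of the 7, 4 fell and 0 rose, with a median of -0.89. RAG1, which cuts DNA in receptor gene rearrangement, was at 22.4 and 21.7 CPM in wild-type, 27.5 and 26.9 CPM in scrambled, 3.83 and 3.79 CPM in shRNA4057 and 13.4 and 13.6 CPM in shRNA4058 libraries. PTCRA, the pre-TCR alpha chain, was at 1.28 and 1.401 CPM in wild-type, 1.32 and 1.14 CPM in scrambled, 0.3201 and 0.2602 CPM in shRNA4057 and 0.802 and 1.01 CPM in shRNA4058 libraries. RAG1 was lower in all hairpin libraries and lowest with shRNA4057 (log2 fold change -1.5, SE 0.40, quasi-likelihood adjusted p 0.019), and PTCRA also did not overlap but missed the threshold (log2 fold change -1.09, SE 0.37, quasi-likelihood adjusted p 0.051). CD1B and CD1E encode molecules that present lipids on cortical thymocytes. CD1B was at 39.4 and 40.8 CPM in wild-type, 42.6 and 41.9 CPM in scrambled, 21.2 and 20.3 CPM in shRNA4057 and 24.7 and 22.8 CPM in shRNA4058 libraries, and CD1E at 358 and 355 CPM in wild-type, 283 and 278 CPM in scrambled, 175 and 178 CPM in shRNA4057 and 252 and 257 CPM in shRNA4058 libraries. Both fell (log2 fold change -0.89, SE 0.07, quasi-likelihood adjusted p 1.7e-04 for CD1B, and log2 fold change -0.56, SE 0.15, quasi-likelihood adjusted p 0.018 for CD1E).

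CD69, an early activation marker, was at 28.2 and 27.3 CPM in wild-type, 61.3 and 53.4 CPM in scrambled, 20.9 and 22.5 CPM in shRNA4057 and 22.2 and 20.8 CPM in shRNA4058 libraries, so it was much higher in scrambled than in wild-type cells and its fold change of -0.98 (SE 0.24) was -1.41 against the former and -0.37 against the latter. RAG2, the partner of RAG1, was at 11.8 and 10.8 CPM in wild-type, 10.3 and 10.96 CPM in scrambled, 4.91 and 5.47 CPM in shRNA4057 and 9.58 and 10.01 CPM in shRNA4058 libraries, and CD1A at 75.2 and 75.6 CPM in wild-type, 67.02 and 69.7 CPM in scrambled, 55.3 and 54.5 CPM in shRNA4057 and 69.8 and 69.6 CPM in shRNA4058 libraries. Neither passed (RAG2 -0.55, adjusted p 0.081, and CD1A -0.21, adjusted p 0.13, quasi-likelihood test). RAG1 and RAG2 overlap on opposite strands, so reads of one may be counted for the other. When a library was left out, 3 to 6 of the 7 were called lower.

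E proteins bind the E-box CANNTG, which is short and was in 73.07% of all RefSeq promoters, and in 4 of the 5 promoters found for these targets (CD1A, PTCRA, RAG1 and RAG2). The RAG1 stretch from position -150 to -50, counted from the start, (GRCh38.p14, chr11:36510203-36510302 on the plus strand) holds 1 such site, shown in capitals, and CACGTG counts as a CANNTG site as well.
RAG1: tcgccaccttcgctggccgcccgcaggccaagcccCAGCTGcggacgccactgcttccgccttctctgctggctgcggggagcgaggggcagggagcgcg

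Of 26 thymocyte and T-lineage surface genes tested, 14 fell and 3 rose, with a median of -0.56. The list includes 6 of the 7 E-protein targets, all but CD69, and among its other 20 members 11 fell and 3 rose, with a median of -0.55. DNTT, the template-free polymerase of receptor gene rearrangement, was at 234 and 231 CPM in wild-type, 233 and 230.3 CPM in scrambled, 44.7 and 45.8 CPM in shRNA4057 and 115 and 115 CPM in shRNA4058 libraries. IL7R, the receptor for interleukin-7, was at 8.67 and 7.97 CPM in wild-type, 9.33 and 10.8 CPM in scrambled, 2.46 and 2.87 CPM in shRNA4057 and 5.55 and 5.58 CPM in shRNA4058 libraries, and KIT, a receptor of early progenitors, at 14.997 and 13.9999 CPM in wild-type, 25.3 and 24.2 CPM in scrambled, 3.58 and 3.67 CPM in shRNA4057 and 11.02 and 10.5 CPM in shRNA4058 libraries. In these 3 genes both controls lay close together or scrambled cells were highest, and shRNA4057 gave the lowest levels (log2 fold change -1.53, SE 0.30, quasi-likelihood adjusted p 0.0054 for DNTT, -1.16 for IL7R and -1.44 for KIT).

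CD38 (-1.36, SE 0.12), the IL-2 receptor chain IL2RA (-1.45, SE 0.19), CD99 (-1.16, SE 0.15) and the coreceptor CD4 (-0.80, SE 0.13) fell. CD34, a stem cell antigen at 0.151 to 0.923 CPM with the hairpins and 0.862 to 2.94 CPM in controls, was called (-1.82), but its groups overlapped. The members that rose were the egress receptor S1PR1, the homing receptor CCR7 and the adhesion molecule CD44. S1PR1 was at 43.2 and 39.9 CPM in wild-type, 15.2 and 14.6 CPM in scrambled, 108 and 107 CPM in shRNA4057 and 73.6 and 76.6 CPM in shRNA4058 libraries. CCR7 was at 3.76 and 3.42 CPM in wild-type, 3.59 and 3.46 CPM in scrambled, 8.05 and 8.004 CPM in shRNA4057 and 7.57 and 8.26 CPM in shRNA4058 libraries. CCR7 had nearly equal levels in both controls and in both hairpins, and S1PR1 differed within each arm but not enough to overlap (log2 fold change 1.70, SE 0.35, quasi-likelihood adjusted p 0.0067 for S1PR1, and log2 fold change 1.16, SE 0.09, quasi-likelihood adjusted p 1.5e-04 for CCR7). CD8A, CD8B, CD7 and CXCR4 were among those that did not pass. An antisense RNA overlaps DNTT. With a library left out 11 to 16 members were called lower and 3 higher. With wild-type cells alone as control 8 were lower and 2 higher, and with library totals 13 and 4. In bulk RNA, fewer cells in a state and less RNA per cell cannot be told apart.

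**Figure D4:**
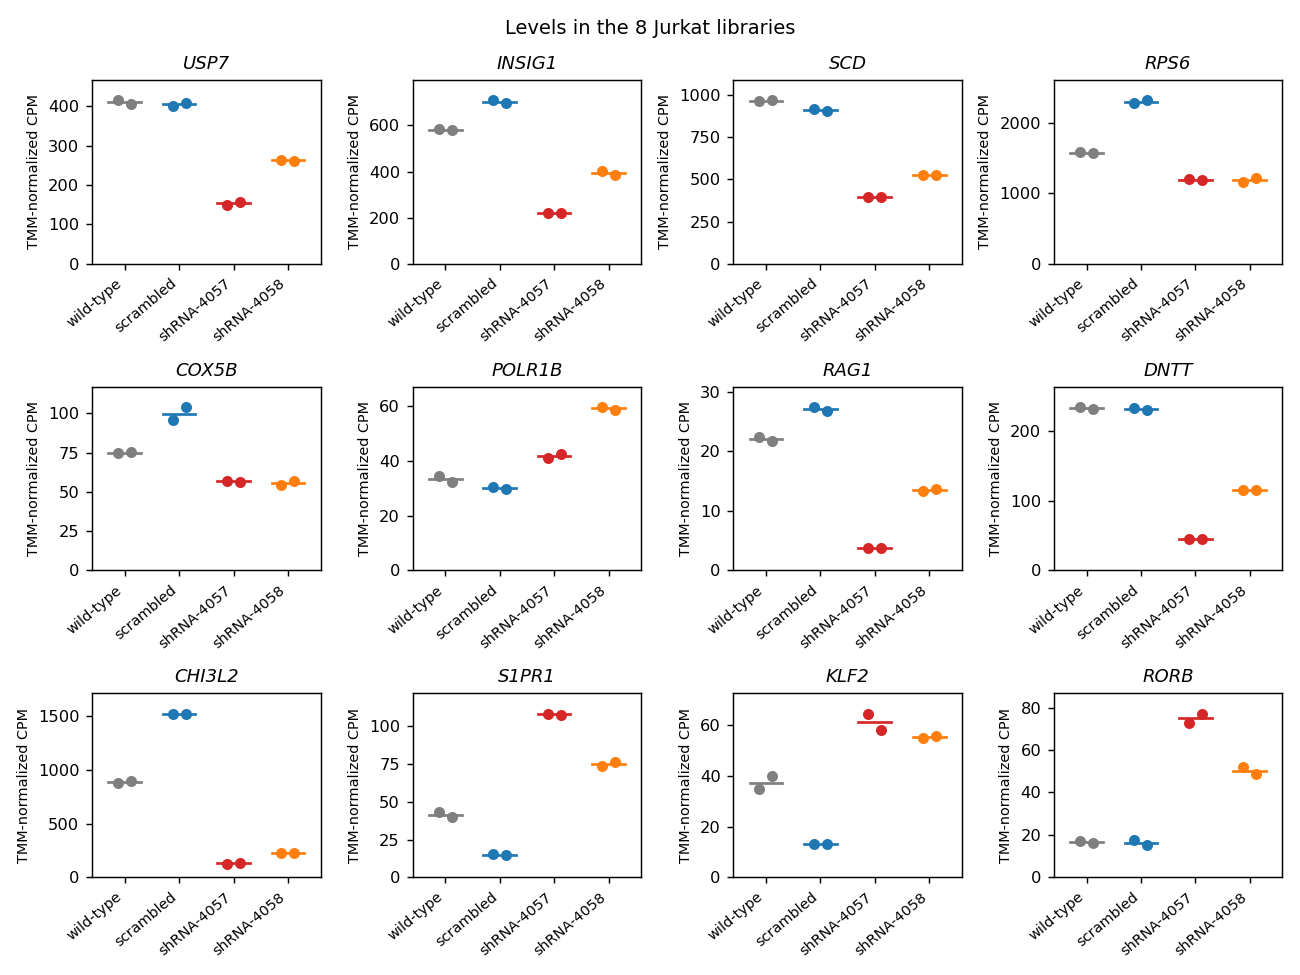
TMM-normalized CPM of 12 genes in the 8 Jurkat libraries, with 1 point per library and a line at the mean of each group of 2, all axes from 0. USP7, INSIG1, SCD, RAG1 and DNTT are lowest with shRNA4057, RPS6 and COX5B are lowest and alike with both hairpins and highest in scrambled cells, and POLR1B, S1PR1, KLF2 and RORB are higher in all hairpin libraries.

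The transcripts of the E proteins and of TAL1 themselves did not pass. TCF3 was at 324 and 346 CPM in wild-type, 365 and 376 CPM in scrambled, 376 and 344 CPM in shRNA4057 and 353 and 386 CPM in shRNA4058 libraries (log2 fold change 0.05, SE 0.07, quasi-likelihood adjusted p 0.63). TAL1 was at 385 and 389.6 CPM in wild-type, 301 and 308 CPM in scrambled, 364 and 363 CPM in shRNA4057 and 306 and 304 CPM in shRNA4058 libraries (log2 fold change -0.05, SE 0.11, quasi-likelihood adjusted p 0.75). The ranges of hairpin and control libraries overlapped in TAL1 and TCF3, and TCF12 was at -0.16 (SE 0.06). Of 13 genes tested for E proteins, their ID inhibitors, TAL1 and its LMO partners, LYL1 rose (0.69, SE 0.15), and LMO1 (-0.94, SE 0.24) and RUNX1 (-0.36, SE 0.06) fell.

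Genes known to be activated by the TAL1 complex split. Of 12, 3 rose and 4 fell, with a median of 0.00. TRIB2, a pseudokinase, was at 159 and 158 CPM in wild-type, 108 and 108 CPM in scrambled, 416 and 413 CPM in shRNA4057 and 389.6 and 386 CPM in shRNA4058 libraries. ALDH1A2, which makes retinoic acid, was at 490.0 and 483 CPM in wild-type, 911 and 897 CPM in scrambled, 199.9 and 199 CPM in shRNA4057 and 287 and 289 CPM in shRNA4058 libraries. TRIB2 was raised alike by both hairpins, and ALDH1A2 was lowered and stood higher in scrambled than in wild-type cells (log2 fold change 1.59, SE 0.14, quasi-likelihood adjusted p 1.7e-04 for TRIB2, and log2 fold change -1.51, SE 0.24, quasi-likelihood adjusted p 0.0022 for ALDH1A2). MYB, a proliferation factor of the circuit, fell by -0.58 (SE 0.12), and ETS1 and TRAF3 rose by 0.24 each. Against wild-type cells alone 1 member was higher and 3 lower, and with library totals 5 and 3. With a library left out 1 to 3 were called higher and 4 lower.

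Among 29 T-lineage transcription factors 8 rose and 4 fell, with a median of 0.14. KLF2, which keeps T cells quiescent and drives S1PR1, was at 34.8 and 39.9 CPM in wild-type, 13.2 and 13.3 CPM in scrambled, 64.6 and 58.3 CPM in shRNA4057 and 55.2 and 55.7 CPM in shRNA4058 libraries. FOXO1, an activator of IL7R and KLF2, was at 13.2 and 13.1 CPM in wild-type, 7.37 and 6.9003 CPM in scrambled, 27.2 and 26.98 CPM in shRNA4057 and 16.6 and 16.1 CPM in shRNA4058 libraries. IKZF3 (Aiolos) was at 9.56 and 10.1 CPM in wild-type, 5.34 and 5.43 CPM in scrambled, 20.2 and 20.05 CPM in shRNA4057 and 11.7 and 12.6 CPM in shRNA4058 libraries. All 3 were higher in every hairpin library than in any control, with wild-type above scrambled cells (log2 fold change 1.21, SE 0.33, quasi-likelihood adjusted p 0.022 for KLF2, 1.10 for FOXO1 and 1.08 for IKZF3). FOXP3, the regulatory T-cell factor, rose by 1.09 (SE 0.21) at a low level, from 0.2102 to 0.334 CPM in controls to 0.529 to 0.645 CPM with the hairpins, and it overlaps CCDC22 on the opposite strand.

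BCL11A (-0.65, SE 0.07), TOX (-0.58, SE 0.07), RUNX1 and SATB1 (-0.26, SE 0.06), all factors of lymphoid development, fell. EOMES, a factor of cytotoxic and memory cells, was at 24.4 and 23.5 CPM in wild-type, 3.998 and 4.79 CPM in scrambled, 108 and 109.6 CPM in shRNA4057 and 17.8 and 16.04 CPM in shRNA4058 libraries. It was raised strongly with shRNA4057 alone, the shRNA4058 libraries lay between both controls, and it did not pass (log2 fold change 2.15, SE 0.77, quasi-likelihood adjusted p 0.062). GATA3, TCF7, LEF1 and IKZF1 did not pass. In the list of factors 5 were called higher without scrambled replicate 2 or shRNA4057 replicate 2, and 11 higher and 2 lower with library totals.

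The trafficking list had 10 members higher and 4 lower of 32, with a median of -0.03. Beside S1PR1, CCR7 and CD44, the chemokine receptor CXCR3 rose. CXCR3 was at 2.59 and 2.74 CPM in wild-type, 2.203 and 1.59 CPM in scrambled, 10.1 and 10.2 CPM in shRNA4057 and 3.69 and 3.68 CPM in shRNA4058 libraries. CXCR3 had all hairpin libraries above the controls (log2 fold change 1.59, SE 0.36, quasi-likelihood adjusted p 0.01). The members that fell were CCR8 (-1.26, SE 0.26), the integrin chain ITGA4 (-0.67, SE 0.14), ICAM2 (-0.60, SE 0.08) and RHOH (-0.21, SE 0.05). Against wild-type cells alone 3 members were higher and 2 lower.

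Cytotoxic effector genes had 3 of 12 tested members higher and none lower. NKG7, a granule protein, was at 6.84 and 9.25 CPM in wild-type, 5.77 and 5.99 CPM in scrambled, 27.9 and 26.1 CPM in shRNA4057 and 12.8 and 12.3 CPM in shRNA4058 libraries. PRF1, perforin, was at 8.796 and 9.64 CPM in wild-type, 6.202 and 6.31 CPM in scrambled, 22.5 and 21.9 CPM in shRNA4057 and 10.4 and 10.5 CPM in shRNA4058 libraries. Both rose in all hairpin libraries, more with shRNA4057 (log2 fold change 1.5, SE 0.28, quasi-likelihood adjusted p 0.0047 for NKG7, and log2 fold change 1.07, SE 0.28, quasi-likelihood adjusted p 0.018 for PRF1). The natural killer receptor KLRD1 was the other member called, at 0.2103 to 0.999 CPM with hairpins and no more than 0.188 CPM in controls, too few counts in scrambled cells for a fold. The list's median difference between hairpins was 1.76, and with a library left out 1 to 4 members were called higher. The count was 1 without either scrambled library and 0 with wild-type cells alone as control.

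Cytokine receptor and JAK-STAT genes changed in both directions, 8 higher and 9 lower of 32, with a median of 0.16. IL10RA, the interleukin-10 receptor, was at 8.27 and 9.22 CPM in wild-type, 4.305 and 4.21 CPM in scrambled, 21.3 and 22.1 CPM in shRNA4057 and 12.6 and 12.9 CPM in shRNA4058 libraries. STAT5A, a mediator of several interleukin signals, was at 59.6 and 58.8 CPM in wild-type, 113 and 112 CPM in scrambled, 34.5 and 33.3 CPM in shRNA4057 and 38.7 and 41.5 CPM in shRNA4058 libraries. Both lay apart from the controls, IL10RA higher and STAT5A lower (log2 fold change 1.40, SE 0.29, quasi-likelihood adjusted p 0.0073 for IL10RA, and log2 fold change -1.21, SE 0.22, quasi-likelihood adjusted p 0.0039 for STAT5A). JAK3 (0.59, SE 0.10), the feedback inhibitor SOCS3 (0.81, SE 0.17) and IL2RB (0.80, SE 0.17) rose. IL6R was at 0.794 to 1.32 CPM with hairpins and at most 0.215 CPM in controls, and also passed. IL2RA, IL7R, the shared chain IL2RG (-0.44, SE 0.11), STAT5B (-0.38, SE 0.06) and STAT3 (-0.32, SE 0.07) fell. STAT5A and STAT5B overlap on opposite strands. Against wild-type cells alone 1 member was higher and 5 lower, and with library totals 13 and 7.

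T-cell receptor (TCR) complex and proximal signalling genes stood near the background, with 2 higher and 6 lower of 33 and a median of 0.11. CD3D fell by -0.47 (SE 0.11), the kinase ZAP70 by -0.45 (SE 0.10), CD2 by -0.44 (SE 0.09) and LCK by -0.30 (SE 0.07), and the adaptor TRAT1 rose by 0.77 (SE 0.20). Of the T-cell defining markers 5 of 10 fell, TRBC2 the most (-0.70, SE 0.12), and their summed level was 2530 to 2642 CPM with hairpins and 2952 to 3381 CPM in controls. With library totals the TCR list had 8 higher and 3 lower.

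Hypoxia and glycolysis genes had 16 of 40 members lower and 2 higher, and most of the difference was from scrambled cells. Its median was -0.26 in the main comparison, -0.51 against scrambled and -0.07 against wild-type cells. ENO1, the glycolytic enolase, was at 3160.1 and 3307 CPM in wild-type, 5342 and 5532 CPM in scrambled, 2966 and 2921 CPM in shRNA4057 and 3075 and 3243 CPM in shRNA4058 libraries. ADM, a hypoxia target, was at 4.11 and 4.47 CPM in wild-type, 30.9 and 32.6 CPM in scrambled, 2.297 and 2.49 CPM in shRNA4057 and 9.47 and 11.4 CPM in shRNA4058 libraries. Both were raised in scrambled cells while wild-type and hairpin libraries lay near each other or overlapped, and neither passed (log2 fold change -0.51, SE 0.17, quasi-likelihood adjusted p 0.053 for ENO1, and log2 fold change -1.49, SE 0.75, quasi-likelihood adjusted p 0.16 for ADM). ALDOC, at 254 and 263 CPM in wild-type, 409 and 425 CPM in scrambled, 196 and 187 CPM in shRNA4057 and 169 and 176 CPM in shRNA4058 libraries, was below either control (log2 fold change -0.89, SE 0.16, quasi-likelihood adjusted p 0.0042), as were NDRG1 (-0.54, SE 0.12) and PFKFB4 (-0.81, SE 0.21). The glucose transporter SLC2A3 (0.77, SE 0.18) and the demethylase KDM3A (0.37, SE 0.06) rose. With wild-type cells alone as control 2 members were called lower, with scrambled cells alone 30, and with a library left out 6 to 18, with 6 without either scrambled library and 8 without either shRNA4057 library.

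Interferon response genes were lower in 13 of 45 and higher in 2, with a median of -0.09 that changed sign with library totals (0.07). RSAD2 (viperin), an antiviral enzyme, was at 17.1 and 17.8 CPM in wild-type, 13.4 and 12.97 CPM in scrambled, 8.26 and 7.48 CPM in shRNA4057 and 9.26 and 9.15 CPM in shRNA4058 libraries. OAS1, which senses double-stranded RNA, was at 4.26 and 3.74 CPM in wild-type, 5.21 and 4.94 CPM in scrambled, 2.14 and 2.15 CPM in shRNA4057 and 1.37 and 1.97 CPM in shRNA4058 libraries. CMPK2, a neighbour of RSAD2 and co-induced with it, was at 52.8 and 54.2 CPM in wild-type, 49.95 and 50.2 CPM in scrambled, 28.1 and 28.2 CPM in shRNA4057 and 33.2 and 34.2 CPM in shRNA4058 libraries. All 3 fell against both controls (log2 fold change -0.84, SE 0.12, quasi-likelihood adjusted p 0.0017 for RSAD2, -1.25 for OAS1 and -0.74 for CMPK2). IRF5, an interferon regulatory factor, was at 0.489 to 0.853 CPM with hairpins and 1.44 to 2.98 CPM in controls (log2 fold change -1.65, SE 0.28, quasi-likelihood adjusted p 0.0032). The excess of lower calls depended on the setting: with library totals 8 were higher and 7 lower, with wild-type cells alone 7 lower, with the replicate block 8 lower, and without either scrambled library 8 lower.

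NF-kB pathway genes were lower in 8 and higher in 3 of 23, with a median of -0.17. TNFAIP3 (A20), the feedback inhibitor of NF-kB, was at 105 and 104 CPM in wild-type, 168 and 172 CPM in scrambled, 61.9 and 62.6 CPM in shRNA4057 and 56.5 and 61.2 CPM in shRNA4058 libraries (log2 fold change -1.18, SE 0.16, quasi-likelihood adjusted p 0.0014). It lay below both controls and was highest in scrambled cells. In the list, 4 were lower without either scrambled library, 5 without shRNA4057 replicate 2, 2 with wild-type cells alone, and 4 with 4 higher under library totals. RELB (-0.71, SE 0.17) and BIRC3 (-0.57, SE 0.16) fell, and BCL3 (1.15, SE 0.27), LTB (1.02, SE 0.20) and REL (0.32, SE 0.06) rose. Of 26 immediate early genes 3 rose, all of the FOS family: FOS, at 2.504 and 2.48 CPM in wild-type, 3.71 and 3.21 CPM in scrambled, 10.7 and 8.97 CPM in shRNA4057 and 5.44 and 5.83 CPM in shRNA4058 libraries, FOSB (0.74, SE 0.16) and FOSL2 (0.67, SE 0.10). FOS was higher in each hairpin library than in any control (log2 fold change 1.38, SE 0.23, quasi-likelihood adjusted p 0.0029), and CD69, ATF3 (-0.68, SE 0.10) and MAFF (-0.31, SE 0.10) fell. Of the immediate early genes 11 were higher and 2 lower with library totals, and 8 and 2 with wild-type cells alone.

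USP7 is best known for its control of MDM2 and p53. The p53 targets had 4 of 26 higher and 6 lower, with a median of -0.03. CDKN1A (p21), the cell cycle inhibitor, was at 1.45 and 1.72 CPM in wild-type, 2.39 and 2.07 CPM in scrambled, 1.79 and 1.51 CPM in shRNA4057 and 2.49 and 1.94 CPM in shRNA4058 libraries. MDM2 was at 167 and 158 CPM in wild-type, 169 and 167 CPM in scrambled, 157 and 163 CPM in shRNA4057 and 199 and 187 CPM in shRNA4058 libraries. The ranges overlapped in both, and neither passed (log2 fold change 0.02, SE 0.20, quasi-likelihood adjusted p 0.94 for CDKN1A, and log2 fold change 0.10, SE 0.08, quasi-likelihood adjusted p 0.38 for MDM2). The repair gene DDB2 (-0.63, SE 0.07) and CCNG1 (-0.48, SE 0.10) fell, and the nuclease AEN (0.53, SE 0.06) rose. The p53 target counts varied, with 1 to 4 higher and 3 to 6 lower when a library was left out (1 and 3 without scrambled replicate 1), and 9 higher and 3 lower with library totals.

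Of 23 USP7 partners and p53 regulators 3 rose, among them RB1 (0.62, SE 0.12) and CLSPN (0.25, SE 0.08), and 6 fell, USP7 itself and among others MYCN (-0.63, SE 0.14), USP11 (-0.47, SE 0.08) and the ubiquitin ligase RNF168 (-0.36, SE 0.06). In the USP family 5 of 47 rose and 7 fell, which is near the shares of all genes. USP44 was the member that fell most after USP7 (-0.66, SE 0.16), and USP36, a nucleolar enzyme, rose (0.34, SE 0.05). With library totals the partners had 6 higher and 3 lower and the USP family 14 and 3, and leaving out a library gave 2 to 5 higher and 4 to 7 lower in the USP family, with 4 lower without either scrambled library.

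In the BCL2 family, which sets the threshold for apoptosis, 6 of 17 fell and none rose, with a median of -0.23. The members called were the survival genes BCL2 (-0.47, SE 0.13) and BCL2L1 (-0.43, SE 0.06), the death genes BAX and BID, and BCL2L12 and BCL2L13. BCL2 was at 39.3 and 37.4 CPM in wild-type, 51.6 and 54.6 CPM in scrambled, 29.5 and 31.3 CPM in shRNA4057 and 35.9 and 35.3 CPM in shRNA4058 libraries, so scrambled cells were highest and each hairpin library was below each control. Without scrambled replicate 1 only 2 of the family were called lower and without scrambled replicate 2 only 3, with wild-type cells alone 1, and with library totals 2 were lower and 1 higher. NOTCH1 pathway genes split, 6 higher and 5 lower of 21 (median -0.03). The direct target HES1 was at 3.31 and 3.55 CPM in wild-type, 3.88 and 3.32 CPM in scrambled, 6.34 and 6.02 CPM in shRNA4057 and 7.78 and 8.59 CPM in shRNA4058 libraries, and the receptor NOTCH3 at 116 and 129.8 CPM in wild-type, 140.3 and 146 CPM in scrambled, 54.7 and 52.5 CPM in shRNA4057 and 86.1 and 91.1 CPM in shRNA4058 libraries. HES1 rose and NOTCH3 fell against both controls (log2 fold change 1.03, SE 0.13, quasi-likelihood adjusted p 9.9e-04 for HES1, and log2 fold change -0.90, SE 0.17, quasi-likelihood adjusted p 0.0054 for NOTCH3), and NOTCH1 fell by -0.29 (SE 0.09) with overlapping groups. The counts of the NOTCH1 list ran from 3 to 5 higher and 2 to 7 lower with a library left out, fewest lower without either scrambled library, and were 7 and 2 with library totals and 4 and 0 with wild-type cells alone.

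In the proliferation lists the direction of the calls depended on scaling. Called in either direction were 27.5% of mitotic, 18% of replication, 28.1% of repair and 27.6% of histone genes. Among all genes 12.5% were called higher and 14.1% lower. The replication list had the smallest share of these lists, but this depended on the setting. With scrambled cells alone as control 1 of its members was higher and 18 lower, and in the fit of 4 groups 5 and 33. Mitotic genes had 3 higher and 8 lower of 40 (median -0.06), DNA replication genes 3 and 6 of 50 (median -0.12), and repair genes 5 and 4 of 32 (median 0.06). CDT1, which licenses replication origins, fell by -0.69 (SE 0.11), and POLA1 rose by 0.36 (SE 0.08). Of 64 replication-dependent histone genes listed only 31 matched an identifier in the table, and those tested fell in 8 of 29 and rose in none (median -0.13, and -0.01 against wild-type cells), with H4C3 at -0.47 (SE 0.09). With library totals most calls were higher: mitotic genes had 9 higher and 0 lower (median 0.11), replication genes 6 and 1 (median 0.05), repair genes 11 and 0 (median 0.22) and histone genes 5 and 2 (median 0.03). Leaving out a library gave 0 to 5 higher and 4 to 8 lower for mitotic genes, with 0 and 4 without scrambled replicate 1, and 1 to 10 lower for replication genes, fewest without scrambled replicate 1 and most without wild-type replicate 1. Repair genes then had 0 to 8 higher, with 0 without wild-type replicate 2, scrambled replicate 2 or shRNA4058 replicate 2, and histone genes 3 to 10 lower, with 3 without either scrambled library, shRNA4057 replicate 2 or shRNA4058 replicate 1.

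The remaining lists held calls in both directions, or lower calls only for WASH and endosome genes. The share called ran from 17.1% (proteasome) to 34.8% (endoplasmic reticulum stress), beside 12.5% higher and 14.1% lower among all genes. Polycomb and DNA methylation genes had 8 higher and 3 lower of 42, with the polycomb subunit CBX2 (0.55, SE 0.06) and the dioxygenase TET3 (0.53, SE 0.10) higher and PHF1 lower (-0.71, SE 0.19). MHC class I genes had 4 higher and 1 lower of 19, the latter being the chaperone CALR (-0.58, SE 0.10). Endoplasmic reticulum stress genes had 3 higher, among them HSPA5 (0.45, SE 0.09), and 5 lower, among them XBP1 (-0.54, SE 0.08), of 23. The ATF4 pathway had 4 higher and 5 lower of 40, with CHAC1 (0.89, SE 0.22) higher and GPT2 (-0.70, SE 0.13) lower. Proteasome genes had 3 each way of 35, actin genes 4 higher (vinculin, VCL, 0.78, SE 0.15) and 6 lower (GSN, -0.81, SE 0.08) of 34, TGF-beta genes 2 higher (SKI, 0.61, SE 0.06) and 3 lower (SMAD6, -0.71, SE 0.09) of 21, and WASH and endosome genes 3 lower of 17, VPS26B the most (-0.38, SE 0.08). Under library totals higher calls outnumbered lower ones in each of these lists. They were 17 and 1 for polycomb, 5 and 1 for MHC class I, 6 and 4 for endoplasmic reticulum stress and 8 and 3 for ATF4. The proteasome had 11 and 0, actin 13 and 4, TGF-beta 7 and 1 and WASH genes 4 and 1. With a library left out the lower calls ran from 0 to 7 for the proteasome (7 without wild-type replicate 1) and from 3 to 7 for actin (3 without scrambled replicate 1), and the higher calls from 1 to 4 for MHC class I genes (1 without shRNA4057 replicate 2) and from 1 to 5 for TGF-beta genes (5 without shRNA4058 replicate 1).

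The genes that fell most, among those called against each control with no overlap, included transcripts better known from other blood lineages. CEBPE, a factor of granulocyte maturation, was at 44.7 and 48.1 CPM in wild-type, 108 and 112 CPM in scrambled, 6.16 and 5.49 CPM in shRNA4057 and 9.87 and 11.8 CPM in shRNA4058 libraries. IGLL1, part of the surrogate light chain of early B cells, was at 71.7 and 76.5 CPM in wild-type, 143 and 148 CPM in scrambled, 8.105 and 7.61 CPM in shRNA4057 and 19.03 and 19.7 CPM in shRNA4058 libraries. CHI3L2, a chitinase-like protein, was at 876 and 896 CPM in wild-type, 1517 and 1522 CPM in scrambled, 127 and 131 CPM in shRNA4057 and 225 and 228 CPM in shRNA4058 libraries. The groups were far apart in all 3, with scrambled cells highest and shRNA4057 lowest (log2 fold change -3.23, SE 0.37, quasi-likelihood adjusted p 5.4e-04 for CEBPE, log2 fold change -3.01, SE 0.38, quasi-likelihood adjusted p 8.4e-04 for IGLL1, and log2 fold change -2.76, SE 0.27, quasi-likelihood adjusted p 3.2e-04 for CHI3L2). The other genes of this set, from lowest up, were MYO5B (-3.16), TFAP2A (-2.90), TTLL9 (-2.61), HAL (-2.52), ABCA1, GPC4 (-2.17), GAS2 (-2.07), ETV5 (-2.06), APLN (-2.04), KANK4 (-2.04), MAL (-1.98) and MYL4 (-1.97). ETV5, an ETS factor induced by growth factor signals, was at 11.2 and 12.04 CPM in wild-type, 17.3 and 17.95 CPM in scrambled, 2.88 and 3.13 CPM in shRNA4057 and 3.81 and 4.13 CPM in shRNA4058 libraries, and MAL, a membrane protein of maturing T cells, at 29.2 and 27.5 CPM in wild-type, 42.6 and 45.8 CPM in scrambled, 6.49 and 6.52 CPM in shRNA4057 and 11.6 and 12.2 CPM in shRNA4058 libraries. Both controls were above every hairpin library in these 2 genes.

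CHI3L2 overlaps DENND2D on the opposite strand and ETV5 overlaps DGKG on its own. The B-cell marker list had 4 of 6 tested members lower, IGLL1, CD79A (-1.13, SE 0.19), CD79B and BLK (-0.33, SE 0.09), with a summed level of 50.04 to 63.7 CPM with hairpins and 130.1 to 240.2 CPM in controls, while PAX5 was at or near 0 in every library. CEBPE was the single myeloid marker called of 7 tested, and that list summed to 6.90 to 13.4 CPM and 46.4 to 114.0 CPM. Of 5 erythroid genes none was called in the main comparison by edgeR (3 had an unadjusted p under 0.05). DESeq2, library totals and the GC and length offset each called 1 higher, the fit of 4 groups 1 in each direction, scrambled cells alone as control 2 lower, and leaving out either wild-type library 1 lower. Among fibroblast and epithelial markers COL1A1 rose (0.61, SE 0.14) and PDGFRB fell (-1.22, SE 0.22) of 3 tested.

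The genes that rose most by the same rule were led by ZNF683 (Hobit), a factor of tissue-resident and effector lymphocytes, at 0.314 and 0.572 CPM in wild-type, 0.239 and 0.111 CPM in scrambled, 2.53 and 2.63 CPM in shRNA4057 and 2.12 and 2.07 CPM in shRNA4058 libraries. PLEKHG3 was at 2.91 and 3.05 CPM in wild-type, 0.875 and 0.735 CPM in scrambled, 15.4 and 13.5 CPM in shRNA4057 and 7.94 and 7.77 CPM in shRNA4058 libraries, and SH3BP5, an inhibitor of the kinase BTK, at 84.2 and 89.3 CPM in wild-type, 13.4 and 15.99 CPM in scrambled, 321 and 323 CPM in shRNA4057 and 175 and 176 CPM in shRNA4058 libraries. The hairpin libraries were above the controls in all 3, and PLEKHG3 and SH3BP5 were several times lower in scrambled than in wild-type cells (log2 fold change 2.92, SE 0.35, quasi-likelihood adjusted p 6.9e-04 for ZNF683, 2.55 for PLEKHG3 and 2.29 for SH3BP5). RORB, a nuclear receptor, was at 17.2 and 16.4 CPM in wild-type, 17.4 and 15.4 CPM in scrambled, 72.9 and 77.1 CPM in shRNA4057 and 52.1 and 48.5 CPM in shRNA4058 libraries. KRT1, a keratin, was at 19.4 and 18.8 CPM in wild-type, 13.6 and 13.7 CPM in scrambled, 68.4 and 67.7 CPM in shRNA4057 and 55.7 and 55.3 CPM in shRNA4058 libraries. The controls were nearly equal in RORB and wild-type cells somewhat above scrambled cells in KRT1, and the log2 fold changes against scrambled and wild-type cells were 1.90 and 1.86 for RORB and 2.16 and 1.68 for KRT1 (log2 fold change 1.92, SE 0.15, quasi-likelihood adjusted p 1.3e-04 for RORB, and log2 fold change 1.91, SE 0.14, quasi-likelihood adjusted p 9.8e-05 for KRT1). The other members were CFTR (2.46), the chemokine receptor CCR2 (2.45), the phosphatase PTPRG (2.41), ECEL1 (2.11), EPHX3 (2.06), IPCEF1 (1.95), RTL5 (1.93), KRT72 (1.92), GPR18 (1.86) and the adenosine receptor ADORA2A (1.79).

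The effect in Jurkat was also tested against that in HSB-2 with the interaction of line and arm over all 16 libraries, in which 35.3% of all genes were called. Ribosomal protein genes differed in 75 of 79, with a median of -0.51 in Jurkat and 0.20 in HSB-2. Ribosome biogenesis genes differed in 27 of 33, with medians of 0.29 and -0.44. The medians of both groups thus had opposite signs in the lines. Cholesterol genes differed in 11 of 26, with a median of -0.11 in HSB-2, where 2 were called lower and 2 higher, and fatty acid genes in 9 of 16 (median -0.07). INSIG1 was at -1.07 in Jurkat and 0.08 in HSB-2 (difference -1.19, SE 0.28, adjusted p 0.0037, quasi-likelihood test). HMGCS1, in contrast, was at -0.57 and -0.54 (difference -0.06, SE 0.29, adjusted p 0.9, quasi-likelihood test). Thymocyte genes differed in 10 of 26, near the share of all genes, p53 targets in 17 of 26 and interferon genes in 22 of 45, with medians of 0.45 and 0.39 in HSB-2. USP7 fell by -0.97 in Jurkat and -0.60 in HSB-2 (difference -0.41, SE 0.20, adjusted p 0.12, quasi-likelihood test).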

How the data were processed

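The authors mapped stranded, ribosomal RNA-depleted RNA-seq reads to GRCh37 (hg19) and made counts per Ensembl gene with HTSeq 0.6.1p1. Per the labels, BWA, STAR and CASAVA also took part, and the annotation and strand setting are not given in the sources used here. The deposited table holds raw counts without symbols: 55538 of 57820 IDs, and 1156 of 1202 gene list entries, were matched to a symbol in a reference table.

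Counts were filtered (filterByExpr), scaled by TMM and tested with edgeR 4.0.16 in R 4.3.3 (quasi-likelihood, Benjamini-Hochberg over all genes, called at an adjusted p under 0.05), 4 hairpin against 4 control Jurkat libraries. A fit of 4 groups gave each control's contrast, and an interaction over 16 libraries the comparison with HSB-2. On simulated data for the main comparison (20215 genes), 100 of 100 genes changed by a log2 fold of 1 were recovered, and 100 of 100 changed by 2. Of 20015 unchanged genes 13 were called. The simulated libraries of an arm differed by random spread only, without differences between the hairpins or between the controls. The real libraries had such differences, so these rates do not carry over to them.

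Named genes were USP7, the 15 highest and 15 lowest among genes called, not overlapping, at 1 CPM or more and called against each control, up to 4 called members per direction of each list, and the E-protein targets. Other genes of a list were named after their values were seen, and a few list members are not reported here by name. The groups, lists and motifs were chosen with earlier results of these data known. Alternatives were other scalings, filters and controls, a replicate block, DESeq2 1.42.0, an offset for GC content and length, and leaving out each library. Promoters are RefSeq's (GRCh38.p14).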

Additional observations from a re-analysis of the deposited data

Results flagged for a closer look

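In an arm of 4 libraries a value was marked when its gap to the nearest other library, divided by the range of the arm, passed Dixon's critical value for 4 samples. Among 76 arms of 38 named genes 1 was marked: ABCA1 in the hairpin arm, where the shRNA4057 replicate 2 library was at 0.635 CPM and the others at 1.195 to 1.297 CPM. For 4 independent values from a single normal distribution, chance would mark about 1 in 20 arms. An arm here held 2 libraries from each of 2 groups, so that rate does not apply.

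For 19 of the 38 genes the effect in Jurkat differed from that in HSB-2 by the interaction term of edgeR's quasi-likelihood test. Most of the 38 were named because their fold change in Jurkat was among the highest or lowest. That Jurkat effect is part of the interaction term, so their share cannot be compared with the 35.3% called among all genes. Of the 19, 11 had the opposite sign in HSB-2. These include TFAP2A and ZNF683, whose log2 fold changes in HSB-2 were only 0.08 and -0.01. The values below are the Jurkat minus HSB-2 difference of log2 fold changes with its adjusted p. Among genes that fell in Jurkat it was -2.21 for CEBPE (adjusted p 0.023, quasi-likelihood test), -3.74 for IGLL1 (5.2e-05), -3.01 for TFAP2A (2.3e-04), -2.60 for CHI3L2 (2.0e-05), -1.71 for ABCA1 (0.012) and -2.90 for GPC4 (8.9e-07). It was -2.33 for ETV5 (3.3e-06), -3.69 for APLN (0.0022), -2.47 for MAL (3.1e-05), -2.02 for CD69 (0.0075) and -1.41 for CD1B (0.034).

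Among genes that rose in Jurkat the difference was 2.89 for ZNF683 (adjusted p 5.6e-04, quasi-likelihood test), 1.39 for PLEKHG3 (0.047), 1.95 for PTPRG (0.023) and 2.02 for EPHX3 (6.8e-04). It was 2.19 for IPCEF1 (0.019), 1.28 for KRT72 (0.043), 1.30 for RORB (5.1e-04) and 2.04 for ADORA2A (5.2e-04). IGLL1 fell by -3.01 in Jurkat and was at 0.70 in HSB-2, and APLN was at -2.04 and 1.61. CD69 was at -0.98 and 1.01, and CD1B at -0.89 and 0.49. PLEKHG3 had the same sign in both lines (2.55 and 1.12), as did KRT72 and RORB.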

How the results depend on the processing

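With DESeq2 size factors, DESeq2's own test, both other filters, the replicate block, the GC and length offset and scrambled cells alone as control, 4313 to 6477 genes were called, compared with 5390. With wild-type cells alone as control 1798 genes were called, 663 higher and 1135 lower, and all 1798 were non-overlapping. In the fit of 4 groups, whose error holds only the spread within groups, 11410 were called, 5502 higher and 5908 lower. With library totals 4803 were higher and 1495 lower. Leaving out a library gave 3295 to 5317 genes called, 1426 to 2437 higher, 1869 to 2880 lower and 3278 to 5156 called and non-overlapping, with the lowest counts without scrambled replicate 1 (3295) or scrambled replicate 2 (3385). The cause was not tested. No named gene reversed. Of 236 named genes 121 lost their call with wild-type cells alone, 68 without scrambled replicate 1, 64 without scrambled replicate 2, 48 without shRNA4057 replicate 2, 40 with library totals, 29 with scrambled cells alone and 13 to 34 without 1 of the other libraries. USP7 kept its call throughout, from -1.11 to -0.81 (largest adjusted p 0.045, quasi-likelihood or Wald test).

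The replicate block gave 4313 calls, 1995 higher and 2318 lower, and 32 named genes lost their call. Deviations of same-numbered libraries from their group means correlated at 0.29 to 0.33 among the wild-type, scrambled and shRNA4058 groups. Each of these groups correlated with shRNA4057 at -0.35 to -0.23. The libraries of a group thus differed along a direction that the groups shared, with the replicate numbers reversed in shRNA4057. Its source was not tested, and a block by replicate number does not follow it in every group. Groups of 2 libraries give the spread within a group little precision. The counts of list members under other settings were added after seeing the data.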
